A study of Mus musculus with 20 samples.

Results

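A set of 65 axon guidance genes was described by the methylation of their CpGs, the cytosine-guanine pairs at which mouse DNA carries most of its methyl groups. The set takes the autosomal protein-coding genes of mm10 whose symbol is a semaphorin (Sema), plexin (Plxn), ephrin (Efna, Efnb), Eph receptor (Epha, Ephb), Slit, Robo, netrin (Ntn, with Ntng1 and Ntng2) or Unc5 symbol, and they make 65 of 21887 protein-coding genes. Of these, 36 encode ligands and 29 encode receptors, in 10 families. Unc50, a Golgi protein gene whose letters fit the pattern, was left out because it is no netrin receptor, and X-linked members were left out because the set is autosomal. CpGs were taken from each gene and 1000 bp either side. The rule reads gene symbols and no methylation value, but the set was chosen with earlier results of these data known.

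The DNA came from homogenised mouse brain after an enrichment for microglia, which are the brain's own immune cells, and was read by reduced representation bisulfite sequencing, an assay that covers CpG-rich fragments of a digested genome. HEM mice overexpressed full-length human wild-type α-synuclein, known for its aggregates in Parkinson disease, from an X-linked transgene driven by the murine Thy-1 promoter, which is mainly active in neurons. The libraries came from 8 HEM and 4 WT mice aged 13 months, and from 4 HEM and 4 WT mice aged 3 months. WT mice were controls, all mice had the B6D2F1/J background, and the labels do not state sex. At 3 months 4 libraries are labelled WT and all were used, although the series' design mentions 3 such mice.

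Axon guidance molecules steer growing nerve fibres by attraction and repulsion. Semaphorins act on plexins, ephrins on Eph receptor tyrosine kinases, Slits on Robo receptors, and secreted netrins such as Ntn1 on DCC and Unc5 receptors. In the adult brain the same pairs act at synapses, in blood vessels and on immune cells. CpG-rich gene starts are usually unmethylated in mammals, while the bodies of genes usually carry methylated CpGs.

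The values are percent methylation per CpG and come without read counts, so the depth behind them is unknown and no counting interval is given. The files list the 2 strands of a CpG as separate positions, and each position is counted here as a CpG. Guidance genes held 7447 CpGs so counted and measured at both ages, which is 0.658% of the 1132579 shared CpGs on chromosomes 1 to 19, X and Y. A gene end was the CpGs within 1000 bp of either annotated end, which took 2760 of them, and a gene body was the CpGs inside the gene beyond that, which took the other 4687. Another protein-coding gene with its 1000 bp flanks also covered 329 of the 7447. Means over all autosomal CpGs ran from 29.1% in HEM 13-month replicate 8, the lowest library, to 31.8%. No library duplicated another, with mean absolute differences within an age of 3.39 to 5.09 points.

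Where at least 3 CpGs were measured, the promoters of these genes were nearly free of methylation. The RefSeq promoter table (GRCm38.p6, the assembly of mm10) matched 56 of the 65 genes with 72 windows of 300 bp, from 250 bp before to 50 bp after a transcript's start. In 34 genes a window held at least 3 measured CpGs, and all 34 averaged under 5% over the 20 libraries, with a median of 0.369%. The site CCGG, the same on both strands and cut by MspI, the enzyme commonly used for this assay, stood in 79.2% of guidance windows and in 53.5% of all 31396 windows. The median number of CG pairs was 20 in guidance windows and 7 in all windows. Over all members, windows with at least 3 measured positions ran from 0.0373% in Plxnd1 to 4.67% in Sema4b. A Sema4d window with 1 measured position stood at 90.8%. The windows of Ntn5 and Robo4, both methylated within 1000 bp of the start, held 0 measured positions. To let the measured CpGs be seen in their sequence, 6 windows are shown, the 3 lowest and the 3 highest among the genes picked by the naming rule of the methods, with 1 window a gene, that of most measured positions. Each is written 5′ to 3′ on the gene's strand, with the CG pairs that the libraries measured, on 1 strand or both, in capitals.

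Sema6b: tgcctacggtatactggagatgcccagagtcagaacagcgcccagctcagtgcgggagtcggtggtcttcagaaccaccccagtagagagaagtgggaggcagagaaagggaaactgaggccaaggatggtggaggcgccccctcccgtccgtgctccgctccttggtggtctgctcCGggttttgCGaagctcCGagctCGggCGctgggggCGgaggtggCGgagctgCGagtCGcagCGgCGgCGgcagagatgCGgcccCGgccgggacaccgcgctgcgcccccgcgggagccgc
Plxnb1: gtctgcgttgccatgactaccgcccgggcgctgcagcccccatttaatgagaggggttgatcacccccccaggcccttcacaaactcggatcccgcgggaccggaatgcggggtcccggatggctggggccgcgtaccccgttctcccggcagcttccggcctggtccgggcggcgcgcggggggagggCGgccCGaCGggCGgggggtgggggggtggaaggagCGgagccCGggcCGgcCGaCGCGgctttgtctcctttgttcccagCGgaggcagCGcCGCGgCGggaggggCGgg
Sema4g: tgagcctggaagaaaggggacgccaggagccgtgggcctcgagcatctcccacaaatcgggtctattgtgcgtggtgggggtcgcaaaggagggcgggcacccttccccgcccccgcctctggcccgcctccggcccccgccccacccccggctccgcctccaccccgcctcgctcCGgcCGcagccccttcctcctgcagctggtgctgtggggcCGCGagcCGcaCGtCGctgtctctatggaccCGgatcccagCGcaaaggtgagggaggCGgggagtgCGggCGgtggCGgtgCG
Sema5b: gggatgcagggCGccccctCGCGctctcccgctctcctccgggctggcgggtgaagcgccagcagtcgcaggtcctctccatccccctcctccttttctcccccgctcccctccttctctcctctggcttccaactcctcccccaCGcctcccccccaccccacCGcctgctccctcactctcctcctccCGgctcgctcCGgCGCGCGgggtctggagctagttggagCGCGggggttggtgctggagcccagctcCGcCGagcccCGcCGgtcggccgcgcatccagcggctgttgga
Slit3: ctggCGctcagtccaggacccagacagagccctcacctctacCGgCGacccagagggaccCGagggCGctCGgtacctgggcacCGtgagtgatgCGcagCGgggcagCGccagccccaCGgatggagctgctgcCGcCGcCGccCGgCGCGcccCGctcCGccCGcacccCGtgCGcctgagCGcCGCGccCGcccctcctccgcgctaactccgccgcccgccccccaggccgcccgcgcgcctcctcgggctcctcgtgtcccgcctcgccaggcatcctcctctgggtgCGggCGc
Ntn3: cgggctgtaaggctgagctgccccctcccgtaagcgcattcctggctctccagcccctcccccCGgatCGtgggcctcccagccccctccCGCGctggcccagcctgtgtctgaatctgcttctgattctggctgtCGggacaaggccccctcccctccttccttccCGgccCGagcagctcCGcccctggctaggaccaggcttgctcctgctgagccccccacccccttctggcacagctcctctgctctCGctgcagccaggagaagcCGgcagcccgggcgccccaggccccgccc

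The window of Sema6b, a transmembrane semaphorin, lies at chr17:56140294-56140593 on the minus strand, and its 16 measured positions, in 14 CG pairs, averaged 0.0880%. Plxnb1, a plexin bound by class 4 semaphorins, has its window at chr9:109095186-109095485 on the plus strand, where 18 positions in 16 CG pairs averaged 0.132%. The window of Sema4g, another transmembrane semaphorin, is at chr19:44989094-44989393 on the plus strand, with 22 positions in 14 CG pairs at 0.168%. At these 3 promoters the measured CpGs lay in the part of the window nearest to the start.

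The other 3 windows shown were higher. Sema5b (chr16:35541112-35541411, plus strand) averaged 0.827% over 18 positions in 16 CG pairs. Slit3, a secreted Robo ligand (chr11:35121206-35121505, plus strand), averaged 0.882% over 31 positions in 28 CG pairs, with group means at 13 months of 1.16% ± 0.182 in 8 HEM libraries and 1.01% ± 0.213 in 4 WT libraries (SD). Ntn3, a secreted netrin (chr17:24209338-24209637, minus strand), averaged 3.35% over 11 positions in 10 CG pairs, the highest of the 6. The Ntn3 window lay above the gene's own body, which averaged 2.25%, and the windows of the other 5 lay below their bodies.

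Distance from the start was taken in genes of known strand, 56 of the 65 members, which leaves out Slit1, Sema3b and Sema6a, methylated at their ends. In these genes methylation was low from 500 bp before the start. It stayed low further into the gene than the mean of all protein-coding genes. Farther upstream, from 1000 to 500 bp before the start, guidance CpGs were the higher, at 10.4% over 112 CpGs in 13 genes against 8.19% over all genes. Within 500 bp after the start, guidance CpGs averaged 1.02% and those of all protein-coding genes 1.60%. At 1000 to 2000 bp after the start the means were 2.34% over 584 guidance CpGs in 28 genes and 8.90% over all genes. At 2000 to 5000 bp they were 11.8% over 563 CpGs in 26 genes and 25.4% over all genes.

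Further in, the curves met: at 5000 to 20000 bp guidance CpGs averaged 46.9% and all CpGs 46.2%. At 20000 to 100000 bp guidance CpGs were the higher, at 65.5% against 58.5%. In the 500 bp before the start guidance CpGs averaged 1.93% and all CpGs 1.86%. These are descriptions without a test, since neighbouring CpGs and CpGs of the same gene are not independent. HEM and WT libraries of the same age overlapped at every distance. The ages overlapped in WT at every distance, but not in HEM close to the start. Within 500 bp after the start HEM libraries had 0.931% to 1.57% at 13 months and 0.578% to 0.914% at 3 months. At 500 to 1000 bp they had 2.28% to 3.20% at 13 months and 2.04% to 2.19% at 3 months. WT means also rose, from 0.859% at 3 months to 1.08% at 13 months within 500 bp. At 500 to 1000 bp WT means rose from 2.26% to 2.63%. Over all genes, 63.3% of tested ends were higher at 13 months in HEM, so a rise was not confined to guidance genes. At 2000 to 5000 bp HEM averaged 12.3% ± 0.459 (SD, n = 8) and WT 11.5% ± 0.606 (SD, n = 4) at 13 months, and HEM 11.4% ± 0.418 and WT 11.7% ± 0.520 (SD, n = 4 each) at 3 months.

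**Figure D1:**
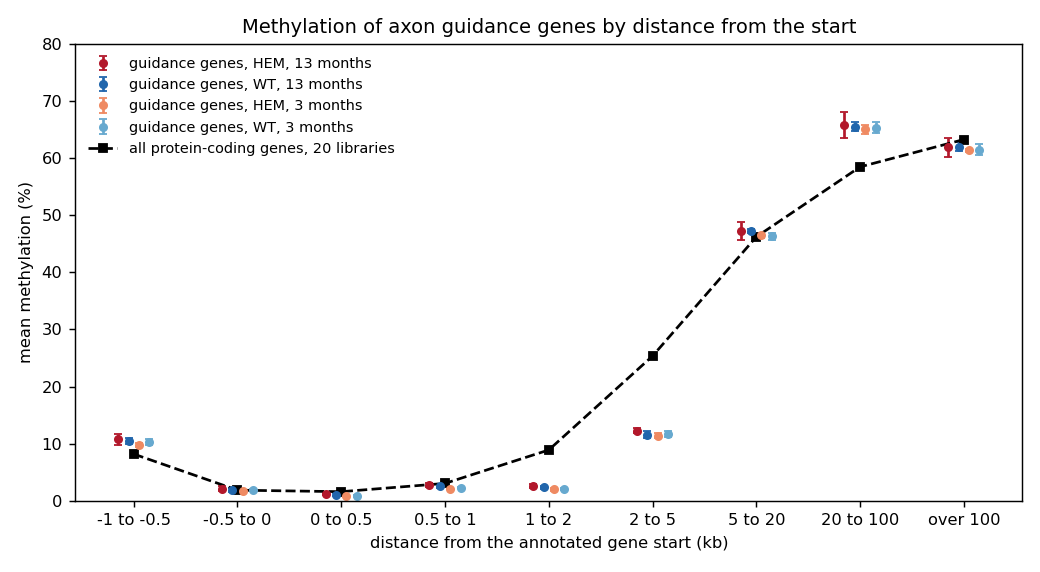
Mean methylation (%) of guidance gene CpGs against distance from the annotated gene start (kb, in bins), one point per group with SD over its libraries, and all protein-coding genes as a dashed line over 20 libraries. Only genes of known strand enter, 56 of the 65 guidance genes. Guidance genes lie below the dashed line between 1 and 5 kb, and HEM and WT libraries of the same age overlap in every bin.

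Gene ends as a whole were low in most members. Of 56 members with at least 3 end CpGs, 36 (64.3%) averaged under 5%, against 68.6% of all 14060 genes with such ends. The median was 2.03% for members and 1.01% for all genes. No end CpG was measured in Sema4c, Epha6, Robo1, Robo2, Sema4a, Ntng1, Sema3a or Slit2, and Plxnb1 had 1.

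At their ends, 10 members averaged 20% or more, and in 5 of the 7 with a known strand only the far end was measured at that level. Ntn5, a netrin, was the highest at 87.6% over 19 CpGs. Ephb6, an Eph receptor without kinase activity, followed at 86.0%, measured at 5 far-end CpGs alone. Unc5a, a netrin receptor (chr13:54945151-55006018, plus strand), stood at 67.4% over 20 CpGs and Sema3g, a secreted semaphorin (chr14:31217873-31230352, plus strand), at 50.5% over 6, both also at the far end alone. Slit1 was at 77.6%, Sema3b at 65.9% and Sema6a at 39.6%, and the table used for strand does not hold these 3.

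Where the start and the far end of the same gene were both measured, the far end was the more methylated in all 10 genes. In Plxnb2, a plexin, the far end stood at 88.2% and the start at 5.12%. In Epha1 the values were 88.7% at the far end and 0.683% at the start, and in Sema5b 91.9% at the far end and 1.10% at the start. The narrowest gap in points was in Efna2, an ephrin, with 10.5% at the far end and 0.318% at the start. Ntn5 was high at both, with 94.1% at the far end and 73.7% at the start. Besides Ntn5, only Robo4, the endothelial Robo receptor, had a start of 20% or more among the 43 members with a measured start, at 49.7% over 8 CpGs. The median start was 1.21% in members and 0.284% in all genes, and the median far end was 61.4% in members and 69.1% in all genes.

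**Figure D2:**
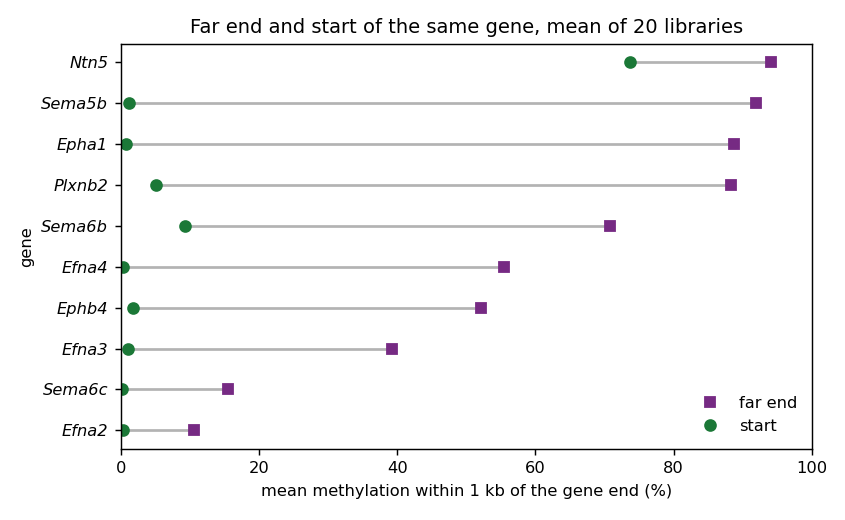
Mean methylation (%) over 20 libraries within 1 kb of the far end (squares) and of the start (circles) for the 10 guidance genes with at least 3 CpGs at both. The far end is the higher in all 10, and the start is above 20% in Ntn5 alone.

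Gene bodies were intermediate and were densely covered. The 63 members with at least 3 body CpGs had a median of 64 CpGs per body, against 17 in all 12104 genes, and a median methylation of 50.9%, against 69.7%. Of member body CpGs, 40.6% were under 20% methylated, 28.9% between 20% and 80%, and 30.5% above 80%, while over all autosomal protein-coding genes the shares were 42.4%, 24.4% and 33.1%. The body stood above the ends in 45 of 54 members with both. The 9 exceptions included Ephb6, with a body of 15.9% and ends of 86.0%, Unc5a, with a body of 32.3% and ends of 67.4%, and Slit1, with a body of 41.3% and ends of 77.6%. The annotated gene spans all its transcripts, so a RefSeq promoter window can lie inside the body as defined here. It did, with at least 3 measured positions, in 9 members, Ephb6, Unc5a, Ntng1, Plxnb1, Robo1, Robo2, Sema4b, Sema4c and Slit2, and these windows averaged 1.38% at most. In Ephb6 the window held 30 of the 55 body positions, at 0.186%, and in Unc5a 27 of 236, at 0.212%. The body means of these 9 genes, and the low values beyond 1000 bp from the annotated start, thus include promoter CpGs.

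Among the semaphorins, the ligands with the most genes here, body methylation ran from 10.2% in Sema4c to 88.8% in Sema4g, and end methylation from 0.709% in Sema4d to 65.9% in Sema3b. Their receptors, the plexins, ran from 24.2% in Plxnb1 to 83.6% in Plxna1 in the body, and from 0.285% in Plxna4 to 58.5% in Plxnb2 at the ends. The family means, taken over all CpGs, were 42.3% in semaphorin bodies and 47.7% in plexin bodies. At the ends they were 7.88% in semaphorins and 2.44% in plexins. Giving each gene the same weight moved the ends to 14.2% in semaphorins and 12.5% in plexins, the genes with few end CpGs being the more methylated.

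Among the Eph receptors, Ephb bodies had the highest family mean over CpGs, 55.9%, with Ephb4, a receptor of the vessel wall, at 87.2% and Ephb6 at 15.9%. The order of the body means weights each CpG the same and need not hold with genes weighted equally. In Unc5 bodies, for example, Unc5a held 236 of the 442 CpGs. Epha bodies averaged 43.1%, from 8.87% in Epha7 to 91.8% over 4 CpGs in Epha1. Efna bodies averaged 35.4%, from 4.58% in Efna3 to 62.1% in Efna2, and the 2 Efnb genes were at 54.2% in Efnb2 and 29.999% in Efnb3. End means were 6.81% in Ephb, 2.46% in Epha, 5.15% in Efna and 0.885% in Efnb, the lowest of the 10 families. With genes weighted equally Ephb ends came to 23.0% and Efnb ends to 2.38%.

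Slit genes (16.0%) and Robo genes (15.4%) had the highest end means, each with 1 methylated gene of only 2. Slit1 stood at 77.6% and Slit3 at 1.82%, while Robo4 stood at 49.7% and Robo3, which acts in axons crossing the midline, at 0.919%. Slit bodies averaged 46.4%, from 7.97% in Slit2 to 69.4% in Slit3, and Robo bodies 46.8%, from 26.9% in Robo3 to 52.1% in Robo1. With genes weighted equally the ends came to 39.7% in Slits and 25.3% in Robos. Netrin bodies had the lowest family mean over CpGs, 34.3%, from 2.25% in Ntn3, which held 76 of the 403 CpGs, to 74.6% in Ntng2. Unc5 bodies averaged 44.3%, from 32.3% in Unc5a to 82.7% in Unc5c. Netrin ends averaged 7.19% and Unc5 ends 7.34%, with Ntn1 at 0.464% and Unc5b at 0.412% as the lowest members, and equal weights gave 19.4% in netrins and 17.6% in Unc5 genes.

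Family means were close in HEM and WT mice at both ages. Semaphorin bodies at 13 months averaged 42.6% ± 1.47 in 8 HEM libraries and 42.6% ± 0.693 in 4 WT libraries (SD), and 42.0% ± 0.280 in HEM and 41.8% ± 0.681 in WT at 3 months (SD, n = 4 each). Plexin bodies at 13 months averaged 48.1% ± 1.24 in HEM and 47.6% ± 0.651 in WT, and at 3 months 47.2% ± 0.391 in HEM and 47.3% ± 0.430 in WT. Robo ends, with 27 CpGs, spanned the widest range of the family end means, in points. At 13 months they averaged 16.1% ± 3.02 in HEM and 16.6% ± 3.46 in WT, and at 3 months 13.6% ± 1.11 in HEM and 14.4% ± 1.301 in WT. In no family did the libraries of the genotypes separate at either age, for ends or bodies.

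**Figure D3:**
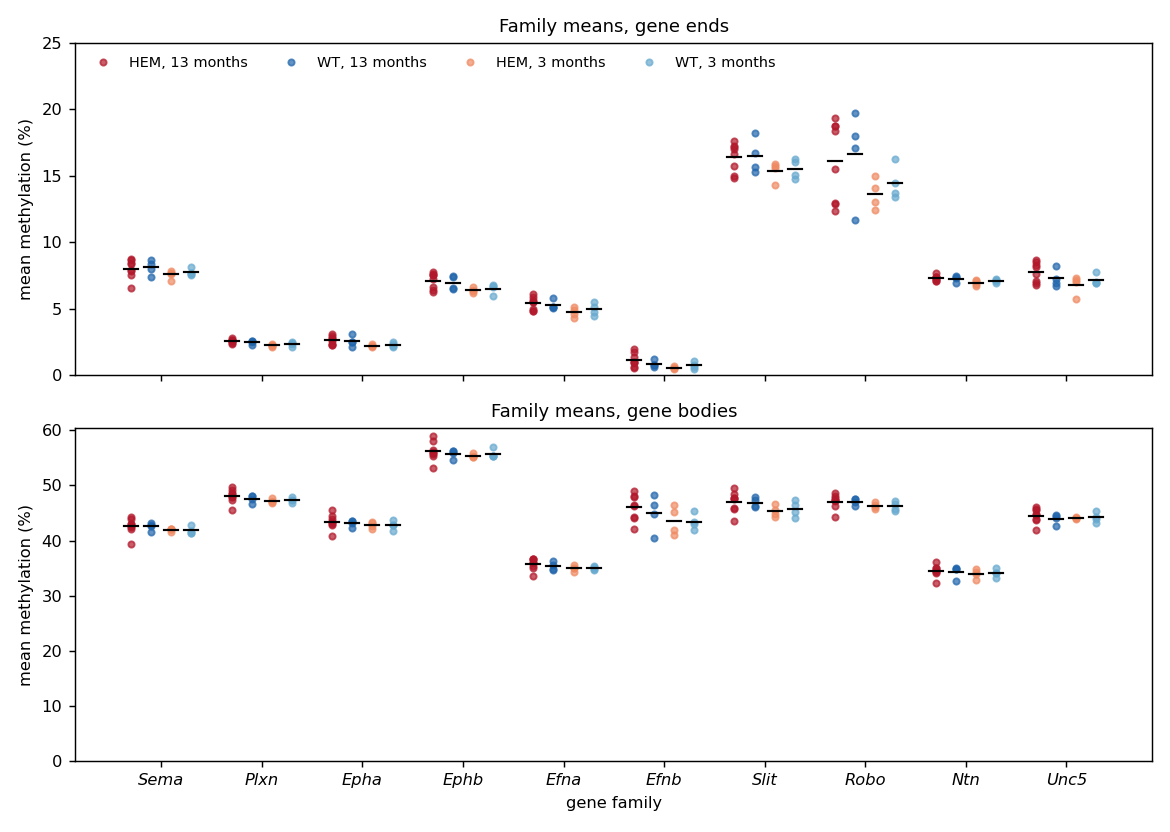
Mean methylation (%) over the CpGs of each family in each library (points, by group) with group means (lines), gene ends above and gene bodies below, each on its own scale from 0. In these means over CpGs, Slit and Robo ends and Ephb bodies are the highest and Efnb ends and Ntn bodies the lowest. HEM and WT points overlap in every family.

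The genotype comparison asked which guidance genes differed in methylation between α-synuclein and control mice. At 13 months none passed the threshold, which was a Benjamini-Hochberg adjusted p under 0.05 from limma across all genes with a difference of at least 5 points for ends and bodies or 10 points for CpGs. It called 0 of 21 member ends and 0 of 61 bodies tested, where 0% of 4447 ends and 0% of 10963 bodies of all genes were called. The ends not tested had fewer than 3 CpGs or a mean outside 5% to 95%, most of them under 5%, so no statement on those ends follows. At an unadjusted p under 0.05 it held 0 member ends, against 5.28% of all ends, and 2 member bodies, against 4.11% of all bodies. Of 3167 member CpGs tested, 0 were called, with 4 of 453891 CpGs called in the whole genome (0.000881%). With same-numbered mice taken as blocks 0 were called in the whole genome. That fit rests on the shared replicate numbers 1, 6 and 7 and leaves little to estimate the spread from. At an unadjusted p under 0.05 were 170 member CpGs, 5.37% of those tested, against 5.82% of all. These p-values measure the spread between the labelled libraries.

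Member ends were higher in HEM in 9 of 21 genes, with a median difference of -0.13 points, and bodies in 37 of 61, with a median of 0.21 points. Over all genes the medians were 0.05 points for ends and -0.01 points for bodies. The largest body difference was in Sema7a, a membrane-anchored semaphorin that also acts on immune cells, at 6.22 points.

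The 2 bodies below an unadjusted p of 0.05 at 13 months encode receptors. Plxna1, a receptor for class 3 and class 6 semaphorins, had a lowest, median and highest value of 81.8%, 84.6% and 87.3% in HEM libraries and values of 76.6%, 83.1%, 83.6% and 82.7% in WT libraries. The groups overlapped, and WT replicate 1 lay below all the others. The difference was 3.21 points (log2 change 0.31 ± 0.13 SE, limma adjusted p = 0.997), and it was 1.59 points without WT replicate 1 and 5.58 points with the replicate block, with limma adjusted p from 0.441 over the alternatives. The block estimate rests on replicates 1, 6 and 7, the only numbers that both groups share at 13 months. Epha3, an ephrin-A receptor, had 21.6%, 24.2% and 25.8% as lowest, median and highest value in HEM, and 18.9%, 23.0%, 23.5% and 20.7% in WT, so that 2 WT libraries lay below all 8 HEM libraries. Its difference was 2.41 points (limma adjusted p = 0.997), and 1.56 points without WT replicate 1.

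At gene ends the smallest p-values at 13 months were those of 2 ephrins. Efnb3, a membrane-spanning ephrin, had 2.62%, 5.43% and 11.8% as lowest, median and highest value in HEM, and 2.03%, 3.84%, 5.82% and 3.504% in WT. Replicates 6 and 11 were the high HEM libraries, and the ranges overlapped (2.59 points, limma adjusted p = 0.984). Efna4, a lipid-anchored ephrin, averaged 21.0% ± 2.33 in 8 HEM libraries and 18.6% ± 3.67 in 4 WT libraries (SD), with a limma adjusted p of 0.984. The difference of 2.34 points came to 0.70 points without WT replicate 1, the lowest library at 13.7%.

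The member CpG of smallest p at 13 months lay in the body of Unc5d, a netrin receptor, at position 29164622 of chromosome 8. It was at 73.7%, 84.4% and 89.5% as lowest, median and highest value in HEM, and at 94.6%, 98.3%, 97.6% and 93.3% in WT. The groups did not overlap at this single CpG, chosen as the smallest p of 3167. The difference was -13.0 points (log2 change -2.13 ± 0.40 SE) and missed the threshold (limma adjusted p = 0.323). Without WT replicate 7, 1 member CpG was called, with 25 of 454485 CpGs called in the whole genome (0.0055%). It lay in the body of Plxnb1 at position 109112954 of chromosome 9 (-13.5 points, limma adjusted p = 0.0384).

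At 3 months the genotype comparison also called none of the guidance genes. It called 0 of 20 member ends and 0 of 62 bodies tested with limma, with 0% of 4599 ends and 0% of 11343 bodies called over all genes. Unadjusted p-values under 0.05 were found in 0 member ends, against 4.54% of all ends, and in 1 member body, against 4.06% of all bodies. Of 3400 member CpGs, 0 were called and 144 had an unadjusted p under 0.05 (4.24%), where 0% of 492283 CpGs were called and 4.53% had such a p. Ends were higher in HEM in 10 of 20 members and bodies in 30 of 62.

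Sema3g, a class 3 semaphorin known from endothelial cells, gave the smallest p for both its end and its body at 3 months, in opposite directions. Its far end had 44.2%, 39.7%, 47.1% and 41.6% in HEM and 47.6%, 45.1%, 57.4% and 48.9% in WT, and 1 HEM library reached into the WT range. The difference was -6.60 points (log2 change -0.38 ± 0.16 SE, limma adjusted p = 0.996). It ranged from -8.71 to -0.71 points across the alternatives, the smallest with the replicate block, which rests on the shared replicate numbers 1 and 3 alone. Its body had 68.6%, 70.1%, 66.9% and 64.8% in HEM and 65.3%, 62.1%, 64.2% and 64.0% in WT, with 1 HEM library below the highest WT library (3.69 points, limma adjusted p = 0.9995).

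The other genes with the smallest p at 3 months were Sema6b and Unc5a. The Sema6b body had 54.3%, 54.1%, 54.8% and 54.7% in HEM and 53.3%, 48.1%, 54.4% and 50.7% in WT. The HEM libraries were within 1 point of each other and 1 WT library fell among them (2.86 points, limma adjusted p = 0.9995). The Unc5a far end averaged 64.5% ± 4.80 in HEM and 68.2% ± 2.07 in WT (SD, n = 4 each), a difference of -3.71 points (limma adjusted p = 0.996). HEM replicate 2 was the lowest library at 57.8%. The difference was -1.48 points with that library left out and -0.34 points with the replicate block. The block estimate rests on replicates 1 and 3, the only numbers that both groups share at 3 months. A CpG in the body of Epha6, an ephrin-A receptor, at position 60436724 of chromosome 16, had 92.6%, 90.0%, 91.2% and 89.4% in HEM and 100%, 100%, 100% and 95.9% in WT. Those groups did not overlap, and the limma adjusted p was 0.985.

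Age was compared within each genotype over the CpGs shared by both ages. The 13-month and the 3-month libraries were deposited as separate sets with different CpG lists, so age and set cannot be told apart. In WT mice limma called 0 of 20 member ends, 0 of 61 bodies and 0 of 3084 CpGs, where 0% of 4379 ends, 0% of 10918 bodies and 0.0183% of 442157 CpGs of the genome were called. Unadjusted p-values under 0.05 occurred in 0 member ends (5.09% of all), 1 body (4.87%) and 142 CpGs (4.79%). Ends were higher at 13 months in 15 of 20 members and bodies in 46 of 61, while 59.5% of all ends and 63.3% of all bodies were higher.

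The body of Sema3g had the smallest p of the WT age comparison, with 71.7%, 66.4%, 66.8% and 70.9% at 13 months and 65.3%, 62.1%, 64.2% and 64.0% at 3 months. The ages did not overlap (4.996 points, log2 change 0.32 ± 0.10 SE), yet the limma adjusted p was 0.956. The same 3-month WT values entered the genotype comparison at 3 months, so these 2 Sema3g results are not independent. The body of Sema6c, a transmembrane semaphorin, averaged 62.0% ± 1.71 at 13 months and 58.9% ± 1.44 at 3 months (SD, n = 4 each, limma adjusted p = 0.956). At the ends, Sema4g averaged 5.65% ± 0.494 at 13 months and 5.04% ± 0.179 at 3 months, and Ephb4 averaged 12.7% ± 1.77 at 13 months and 10.7% ± 1.203 at 3 months (SD, n = 4 each), both with a limma adjusted p of 0.973. A CpG in the body of Efnb3 (position 69560065 of chromosome 11) had 7.69%, 9.09%, 8.93% and 21.9% at 13 months and 0%, 2.04%, 0% and 2.82% at 3 months. All 13-month libraries lay above all 3-month libraries there (10.7 points, limma adjusted p = 0.768).

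In HEM mice limma called 0 of 21 member ends, 0 of 61 bodies and 0 of 3096 CpGs between the ages, where 0% of 4397 ends, 0% of 10924 bodies and 0.0305% of 445659 CpGs of the genome were called. Unadjusted p-values under 0.05 occurred in 3 ends (14.3%, against 16.3% of all), 4 bodies (6.56%, against 12.1%) and in 297 CpGs (9.59%, against 10.4%). Ends were higher at 13 months in 17 of 21 members, by a median of 1.01 points, and bodies in 47 of 61, by a median of 0.70 points, while 63.3% of all ends and 64.4% of all bodies were higher, by medians of 0.31 and 0.56 points. Means over the marker gene regions of cell types also differed between the ages, in the same direction in HEM and WT. In each list the libraries of the ages overlapped in both genotypes. In HEM, microglia marker regions averaged 48.2% ± 5.09 at 13 months and 53.4% ± 3.95 at 3 months (SD, n = 8 and 4). Neuron marker regions averaged 19.6% ± 1.08 and 18.2% ± 0.127 at these ages, and vessel marker regions 48.2% ± 3.55 and 46.1% ± 0.293. Astrocyte marker regions averaged 36.1% and 34.99%, and those of the oligodendrocyte lineage 33.8% and 33.2%. In WT, microglia marker regions averaged 50.9996% ± 5.16 at 13 months and 52.3% ± 2.82 at 3 months (SD, n = 4 each). Neuron marker regions averaged 18.99% ± 0.831 and 18.7% ± 0.599 there, and vessel marker regions 49.4% ± 1.77 and 46.9% ± 1.34. Astrocyte marker regions averaged 35.8% and 35.5% in WT, and those of the oligodendrocyte lineage 33.4% and 33.3%. With the microglia marker mean as a covariate, limma called 106 CpGs of the genome between the ages in HEM (136 without) and 75 in WT (81 without). Of guidance CpGs 0 were called in either. The other marker lists were not used as covariates, and the part of cell mix in the age differences was not tested. Whether HEM and WT differed in their age difference is the interaction, given further on.

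Efnb3 ends had the smallest p in this comparison. Their lowest, median and highest values were 2.62%, 5.43% and 11.8% in HEM at 13 months, against 1.67%, 1.999%, 2.58% and 3.06% in HEM at 3 months. Among the 13-month libraries 2 reached into the 3-month range (4.06 points, log2 change 1.10 ± 0.35 SE, limma adjusted p = 0.212). The far end of Ephb6 had 81.6%, 88.3% and 92.3% at 13 months, against 85.9%, 81.4%, 85.2% and 83.3% at 3 months (4.10 points, limma adjusted p = 0.261), with replicate 8 the only 13-month library in the 3-month range.

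Among bodies in HEM, Sema3e, the ligand of plexin D1, had 72.9%, 77.6% and 84.3% at 13 months, against 73.6%, 71.8%, 70.8% and 74.3% at 3 months, where again only replicate 8 overlapped (5.55 points, limma adjusted p = 0.346). Efna1, an ephrin-A, averaged 51.1% ± 2.02 (SD, n = 8) at 13 months and 46.9% ± 2.93 (SD, n = 4) at 3 months, with a limma adjusted p of 0.340. The widest body difference was that of Sema7a, 12.2 points with a limma adjusted p of 0.388. A CpG in the body of Sema5b (position 35591879 of chromosome 16, 50725 bp from the start) had 23.1%, 33.2% and 51.5% at 13 months, against 19.7%, 10%, 8.82% and 13.0% at 3 months. The ages did not overlap there (21.7 points, limma adjusted p = 0.224).

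The interaction asks whether the difference between HEM and WT changed with age, and limma called no guidance gene. It called 0 of 20 ends, 0 of 61 bodies and 0 of 3111 CpGs, where 0% of 4382 ends, 0% of 10930 bodies and 0.000224% of 446428 CpGs of the genome were called. Unadjusted p-values under 0.05 were found in 0 ends (6.07% of all), 0 bodies (4.86%) and 190 CpGs (6.11%, against 6.28% of all).

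The smallest p at ends was that of Efna4, whose means at 13 months were 21.0% in HEM and 18.6% in WT, and at 3 months 17.9% in HEM and 19.2% in WT (3.62 points, limma adjusted p = 0.809), followed by Ntn5 (1.95 points, limma adjusted p = 0.817). In bodies it was Plxna1, which at 13 months stood at 84.7% in HEM and 81.5% in WT, and at 3 months at 83.3% in HEM and 83.7% in WT. Unc5b, a netrin receptor of vessels and axons, followed, at 13 months with 51.9% in HEM and 49.7% in WT, and at 3 months with 49.8% in HEM and 50.7% in WT, both with a limma adjusted p of 0.916. A CpG of Ephb1 (position 102140947 of chromosome 9) gave -16.0 points, with a limma adjusted p of 0.633.

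**Figure D4:**
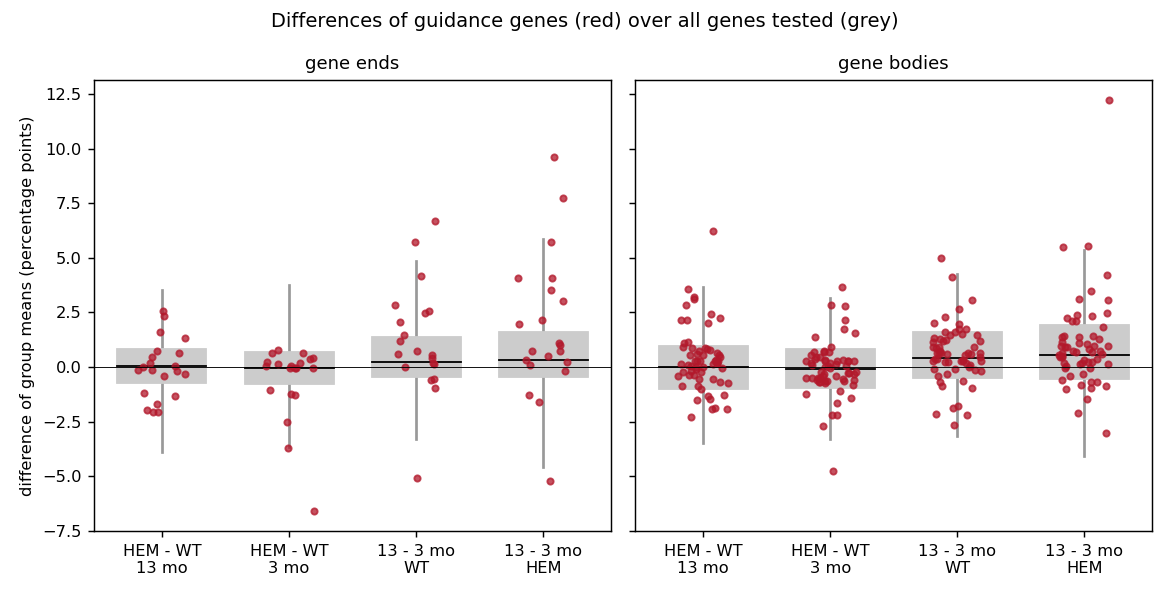
Differences of group means (percentage points) of each tested guidance gene (red points) in 4 comparisons, HEM minus WT at each age and 13 minus 3 months in each genotype, for ends (left) and bodies (right). Grey boxes, lines and black bars give the quartiles, the 5 to 95 percentile span and the median of all genes tested, and most red points lie inside the grey span.

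The spread between single libraries was wide in a few genes, with both genotypes holding high and low libraries. Most of these features held few CpGs, against member medians of 44.5 at ends and 64 in bodies. Sema3g ends held 6, Robo4 ends 8 and Sema3b ends 4, and the bodies of Sema7a, Sema4a and Robo4 held 39, 12 and 7. The median range was 2.39 points at member ends and 1.19 at all ends, and 6.29 in member bodies and 8.53 in all bodies. Sema3g ends spanned the widest range, 45.0 points. Its far end had 31.2%, 47.0% and 76.2% as lowest, median and highest value in HEM and 72.8%, 51.4%, 59.2% and 32.3% in WT at 13 months. At 3 months the values lay within 39.7% to 47.1% in HEM and 45.1% to 57.4% in WT.

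The start of Robo4 (chr9:37401902-37414023, plus strand) had 40.3%, 54.7% and 62.5% in HEM and 63.0%, 55.4%, 59.2% and 36.5% in WT at 13 months. HEM replicates 1, 6, 11 and 13 and WT replicates 1, 2 and 6 were above 55%, and HEM replicates 3, 8 and 10 and WT replicate 7 below 43%. At 3 months the range was 40.8% to 47.9% in HEM and 43.0% to 52.0% in WT. Sema3b, a secreted semaphorin measured at 4 end CpGs, divided the 13-month mice alike: HEM replicates 3, 8 and 10 and WT replicate 7 were the lowest, from 60.6% to 61.7%, and the others lay from 69.9% to 75.2%.

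The body of Sema7a (chr9:57939596-57962865, plus strand) had 38.8%, 55.9% and 68.0% in HEM and 46.1%, 46.3%, 58.3% and 41.9% in WT at 13 months. HEM replicates 1, 6, 11 and 13 were again the high ones, and replicates 8 and 10 the low ones. At 3 months it had 38.5%, 40.3%, 43.7% and 46.2% in HEM and 45.3%, 45.5%, 53.7% and 42.3% in WT. The body of Sema4a, a semaphorin of immune cells, ranged from 29.3% to 57.6% in HEM and from 42.5% to 59.0% in WT at 13 months, and that of Robo4 from 18.6% to 39.8% in HEM and from 14.8% to 41.0% in WT.

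**Figure D5:**
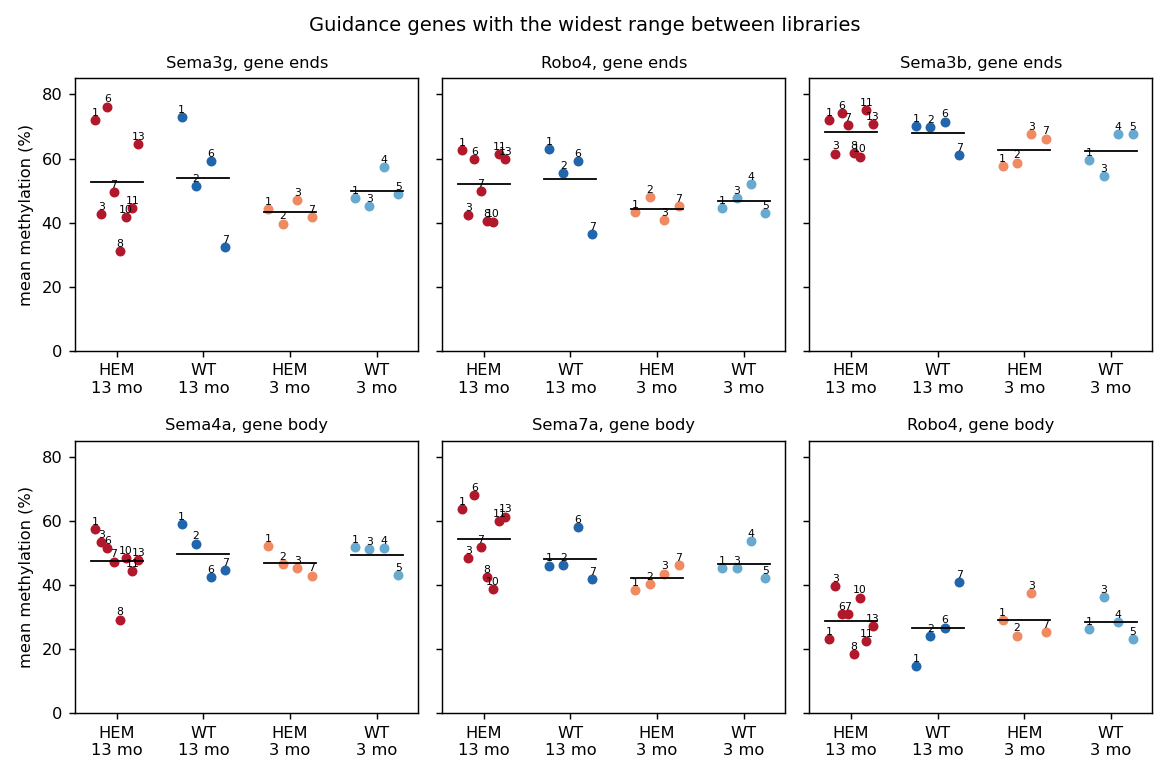
Mean methylation (%) in each library, with replicate numbers and group means (lines), for the 3 gene ends and the 3 gene bodies of widest range. HEM and WT overlap in all 6 panels, and HEM replicates 3, 8 and 10 and WT replicate 7 are the low 13-month libraries at Robo4 and Sema3b ends.

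In a homogenate, a different mix of cell types and a different methylation within a cell type cannot be told apart. Methylation of marker gene regions differed between libraries most for microglia, from 41.6% to 57.7% over 11 of 14 listed genes, and for vessels, from 41.5% to 53.2% over 7 of 7. Over astrocyte markers it ran from 32.7% to 37.9% (7 of 8), over oligodendrocyte lineage markers from 31.4% to 34.7% (9 of 10), and over neuron markers from 18.05% to 21.0% (12 of 12). No expression was measured in these libraries, so the markers could not check the labelled enrichment.

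Across the 12 mice of 13 months, the 6 widest features were set against the microglia marker mean, a comparison made after their values were seen. Sema3b ends were lower where the marker regions were higher (Spearman's rho -0.748, permutation p = 0.00709, adjusted over 6 relations p = 0.0425; Pearson's r -0.568, permutation p = 0.0579, adjusted p = 0.125). The Sema7a body gave r = -0.650 (permutation p = 0.0259, adjusted p = 0.125) and rho = -0.643 (permutation p = 0.0279, adjusted p = 0.0738). Without the 2 libraries of most extreme marker mean r was -0.617 in both, and within the 8 HEM mice r was -0.686 for Sema3b and -0.568 for Sema7a. The Sema4a body went the other way, with rho = 0.615 (permutation p = 0.0369, adjusted p = 0.0738) and r = 0.539 (permutation p = 0.0627, adjusted p = 0.125), which came to 0.421 without those 2 libraries and 0.415 within HEM. For the ends of Sema3g and Robo4 and the body of Robo4 r was -0.0970, -0.373 and 0.275, with adjusted permutation p-values of 0.342 or more. These permutations treat the 12 mice as exchangeable and ignore any pairing of same-numbered mice. At 3 months the libraries fell into separate clusters of the marker mean, and no relation was computed. Vessel marker regions also moved with the split at Robo4 and Sema3b. They averaged 50.8%, 53.2%, 49.7% and 49.8% in HEM replicates 1, 6, 11 and 13 and 51.6%, 48.8% and 49.7% in WT replicates 1, 2 and 6. In the libraries low at both genes they were at 46.4%, 41.5% and 46.4% in HEM replicates 3, 8 and 10 and at 47.3% in WT replicate 7, and HEM replicate 7 stood at 47.6%. Neuron and oligodendrocyte lineage marker regions moved with the split within HEM alone. Neuron ones were at 18.9%, 18.05% and 18.4% in HEM replicates 3, 8 and 10, against 19.7% to 21.0% in the other 13-month HEM libraries. Oligodendrocyte lineage ones were at 33.1%, 32.6% and 32.4% there, against 34.2% to 34.7%. In WT replicate 1, high at both genes, these regions averaged 18.1% and 31.4%, below the 18.7% and 33.96% of WT replicate 7. The libraries low at both genes also had the lowest autosomal means of the 13-month libraries. Those means were 30.5%, 29.1% and 30.3% in HEM replicates 3, 8 and 10 and 30.4% in WT replicate 7, against 30.7% to 31.8% in the others. The part of cell mix, or of the level of the whole library, in these values was not tested.

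Single CpGs with a span of at least 50 points between libraries numbered 236 in guidance genes, 3.17% of their CpGs, against 3.19% of all autosomal CpGs. They lay in 48 genes. Ephb2, an ephrin-B receptor with 278 body CpGs, held 32 of them, while its body mean stayed between 46.8% and 55.7% in HEM and 48.8% and 51.5% in WT at 13 months. Slit1 and Unc5a had 11 each.

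The rest of the guidance pathway was read from a list of 42 further genes, among them the netrin receptor gene Dcc, the neuropilins and the cytoplasmic effectors of the Dpysl, Srgap and Mical families. Their 39 measured ends had a median of 0.934%, with 32 under 5%, and their 37 bodies a median of 53.9%. Limma tested 7 of these ends and 36 bodies and called 0, higher or lower, in each of the 5 comparisons, where 0% of all ends and bodies were called as well. At an unadjusted p under 0.05 were 1 of 7 ends and 1 of 36 bodies at 13 months, and 1 of 7 ends and 0 of 36 bodies at 3 months, between HEM and WT. The shares over all genes were 5.28% of ends and 4.11% of bodies at 13 months, and 4.54% of ends and 4.06% of bodies at 3 months. Between ages such a p was found in 0 of 7 ends and 0 of 36 bodies in WT, against 5.09% of all ends and 4.87% of all bodies, and in 1 of 7 ends and 5 of 36 bodies in HEM, against 16.3% and 12.1% of all. In the interaction it was found in 1 of 7 ends and 1 of 36 bodies, against 6.07% and 4.86% of all. Dpysl4 ends had the smallest limma adjusted p of the list, 0.0654 between 13 and 3 months in HEM, with a difference of 2.48 points.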

How the data were processed

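The authors deposited 1 file per library with the percent methylation of each CpG. The build is mm10 and the tools named are Bowtie2 and methylKit, per the submitters' processing notes, and their versions are not given in the sources used here. Coverage is not in these files, so counts were not tested. A further 2 deposited tables of the whole series, with 21 value columns that name no sample, were not used. Groups came from the labels. Genes and their ends came from the RefSeq table of the same assembly. Features were means over at least 3 CpGs, or single CpGs, of chromosomes 1 to 19, X and Y, and a feature was tested where its mean over the compared libraries lay from 5% to 95%. Comparisons within an age used all CpGs listed at that age, 1151247 at 13 months and 1234494 at 3 months, and others used the shared ones, so levels of 1 gene can differ slightly between them. limma 3.58.1 (R 4.3.3) was fitted to log2((percent + 1) / (100 - percent + 1)) over the whole genome, with moderated variances and Benjamini-Hochberg adjustment, and interactions needed an adjusted p under 0.05 alone.

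Named genes were, per family and for ends and bodies, the members of highest and lowest mean, in each comparison the 2 genes and the CpG of smallest p, the 3 members of widest range, and up to 8 members with ends of 20% or more. Further genes, among them Sema7a differences, Slit1 and Sema6a, CpGs called in an alternative and the counts of wide CpGs, were named after their values were seen. Members and lists were chosen with earlier results of these data known. Permutation tests of correlations were two-sided with 100000 resamples. At 13 months the 3 replicate numbers shared by HEM and WT gave correlations of deviations from the group means of 0.176, 0.435 and 0.102. Mice of the same number were treated as possibly paired there, by these values alone. No correlations of unlike numbers stand beside them, and the labels do not say what a number marks, so a pairing is not established. The main fits used no block. Alternatives were the percent scale, an offset of 5, no filter on the mean, no minimum difference, a variance trend, a microglia covariate, the replicate block, at least 5 CpGs, ends of 500 bp, the start or far end alone, positions 1 bp apart averaged, genes weighted equally, and each library left out.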

Additional observations from a re-analysis of the deposited data

Results flagged for a closer look

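Of 292 group and feature combinations tested, 22 (7.53%) held a library far from the rest of its group by Dixon's test, which chance does in about 1 in 20. The combinations are not independent, since family means include members that were also tested and the same library enters many of them. The share therefore does not show an excess over chance. HEM 13-month replicate 8, also the library of lowest autosomal mean, was the low one in 6 of them. In it, semaphorin bodies averaged 39.4%, where the other HEM libraries of that age had at least 42.0%. Its bodies of Plxnb1 (22.3%), Slit2 (6.74%), Robo3 (23.9%), Sema4a (29.3%) and Sema6b (43.8%) were low in the same way, and for Sema4a the next library stood at 44.3%. HEM 13-month replicate 11 had the highest Epha7 ends, 0.771%.

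Among 13-month WT mice, replicate 1 had low netrin bodies (32.6%) and a low Plxna1 body (76.6%), and a high Sema6c body (64.6%). Replicate 6 had high ephrin-A ends (5.78%) and low Ephb6 ends (80.6%), and replicate 7 had low Sema3b ends (61.0%).

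Among 3-month HEM mice, replicate 2 was low in Unc5 ends (5.71%), of which Unc5a ends were at 55.4% against 67.3% or more in the others, and in semaphorin bodies (41.6%), and high in Efna5 ends (0.643%). Replicate 3 was high in Plxna4 ends (0.486%). Among 3-month WT mice, replicate 4 was high in Unc5 ends (7.77%) and Ephb bodies (57.1%), replicate 1 in Plxnb2 ends (59.6%), and replicate 5 was low in the Sema4a body (43.2%).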

How the results depend on the processing

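The count of called guidance features was 0 in all 15 comparisons (ends, bodies and CpGs in 5 contrasts) and stayed at 0 in 308 of 309 alternatives. The exception was CpGs of HEM against WT at 13 months, where leaving out each library in turn gave 0 to 1 calls, the 1 being a Plxnb1 CpG without WT replicate 7. The named differences kept their direction in every alternative run, and none was called. With the replicate block, 0 guidance features were called, and genome-wide CpG calls went to 0 (4 without the block) between HEM and WT at 13 months, to 0 (136 without) between ages in HEM, and to 0 (1 without) in the interaction. Between 2 groups the block rests on shared numbers alone, which were 1, 6 and 7 at 13 months and 1, 3 and 7 between ages in HEM. It leaves little to estimate the spread from, so the fall to 0 calls decides nothing. At 3 months the same-number correlations were 0.161 and -0.303 and between ages in HEM 0.060, -0.311 and -0.080. Those libraries were not taken as paired, though the block was run as an alternative. WT ages share only replicate number 1, so no block could be fitted. Genome-wide CpG calls at 13 months came to 0 on the percent scale or with an offset of 5, and to 14 with no minimum difference. They came to 2 with a variance trend, 6 with the microglia covariate, and 3 to 45 without single libraries. At 3 months they came to 8 with no filter on the mean, and to 57 without WT replicate 1. Between ages the percent scale gave 38 CpGs in WT (81 otherwise) and 20 in HEM (136 otherwise), while leaving out single libraries gave 63 to 181 in WT, with 181 without 13-month replicate 6 and 125 without replicate 2, and 114 to 195 in HEM. Gene ends over the genome came to 2 calls (0 otherwise) without WT replicate 6 between HEM and WT at 13 months, and to 8 (0 otherwise) with the start end alone between ages in HEM. Equal weights moved ephrin-A ends to 7.74%. The causes of these moves were not tested. Percentages without coverage give each CpG the same weight, and 4 libraries a group limit what could be called.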
